A study of Mus musculus with 6 samples.

Results

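The genes of the mouse proteasome were examined in maps of CHD7 and H3K27ac made by chromatin immunoprecipitation with sequencing (ChIP-seq). They were taken as all protein-coding RefSeq genes whose symbol starts with Psma, Psmb, Psmc, Psmd, Psme, Psmf or Psmg followed by a number. That rule gave 51 of 21776 genes. In 3 of them letters follow the number, and these were kept apart: Psmc3ip, a meiotic recombination factor, Psme2b and Psme3ip1. The other 48 encode subunits, activators, an inhibitor and assembly chaperones of the proteasome and are called proteasome genes here.

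All 6 libraries came from embryos of male Wnt1-Cre2 mice crossed with female mTmG mice at stage E10.5. Their labels differ only in the antibody and the sample number. Wnt1-Cre2 is a Cre driver of the neural crest lineage, and mTmG is a reporter that switches from a red to a green membrane protein after recombination. Green cells of pharyngeal arches 3 to 6 were sorted and are labelled cardiac neural crest cells. There were 2 libraries for CHD7, 2 for H3K27ac and 2 for input chromatin without antibody. The labels name neither separate litters nor separate sorts for the libraries of a group, so a p-value here reflects no more than the differences between such libraries, and these may be technical.

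The proteasome is the protease that degrades ubiquitin-tagged proteins in the cytosol and nucleus. Its 20S core is a barrel of alpha and beta rings whose beta subunits cut peptide bonds, and the 19S regulatory particle recognises, unfolds and feeds substrates through a ring of ATPases. Its subunits are needed in fixed proportion, and when proteasome activity is short the transcription factor Nfe2l1 raises their genes together through antioxidant response elements. CHD7 is a chromatin remodelling ATPase, and H3K27ac is the acetylation of lysine 27 of histone H3, a mark of active promoters and enhancers.

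In the 2 libraries of each ChIP group, peaks numbered 31873 and 26927 for CHD7 and 24283 and 22686 for H3K27ac, against 451 and 512 for input. Read counts are not used here, so the depth is unknown. A region is the merged extent of overlapping peaks of an antibody's libraries, kept where both libraries have a peak in it, and it is at a gene end where it lies within 1 kb of either annotated end. Of 10 neural crest markers, 3 had CHD7 and 3 had H3K27ac at an end. Sox9 had both, while Sox10, Tfap2a, Tfap2b, Foxd3 and Prrx1 had neither. None of 5 cardiomyocyte markers had a region of either kind. Of 4 endothelial markers 1 had CHD7 and 0 had H3K27ac, of 4 blood markers 1 and 2, of 3 epithelial markers 1 and 1, and of 3 neuronal markers 2 and 2. The part of such other cells in the results was not tested.

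The sequences upstream of 6 starts show the range of promoters met among the proteasome genes. Psme2 and Psmc1 are shown for their high CHD7 folds beside H3K27ac, Psmb4 for H3K27ac with no CHD7 region, Psma6 and Psmf1 for regions at an inner start, and Psmb11 for neither mark. Each is the 250 bases before the start given by RefSeq on GRCm38.p6, the assembly called mm10, written 5′ to 3′ on the gene's strand. Capitals mark matches, on either strand, to the 7 motifs treated at the end, where the match lies wholly in these bases. The windows are chr14:55591102-55591351 on the minus strand for Psme2, chr12:100109952-100110201 on the plus strand for Psmc1 and chr3:94886959-94887208 on the minus strand for Psmb4. Those of the other genes are chr12:55398575-55398824 on the plus strand for Psma6, chr2:151741311-151741560 on the minus strand for Psmf1 and chr14:54625060-54625309 on the plus strand for Psmb11.
Psme2: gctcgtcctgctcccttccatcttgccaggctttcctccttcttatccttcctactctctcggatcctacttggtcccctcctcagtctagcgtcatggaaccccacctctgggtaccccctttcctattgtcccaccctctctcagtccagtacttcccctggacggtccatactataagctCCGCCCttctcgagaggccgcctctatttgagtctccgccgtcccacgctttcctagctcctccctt
Psmc1: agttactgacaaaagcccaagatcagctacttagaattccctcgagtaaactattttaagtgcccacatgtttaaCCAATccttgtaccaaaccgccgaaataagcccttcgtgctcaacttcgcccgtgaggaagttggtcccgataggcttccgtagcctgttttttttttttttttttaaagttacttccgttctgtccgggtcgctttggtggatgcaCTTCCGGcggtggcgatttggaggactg
Psmb4: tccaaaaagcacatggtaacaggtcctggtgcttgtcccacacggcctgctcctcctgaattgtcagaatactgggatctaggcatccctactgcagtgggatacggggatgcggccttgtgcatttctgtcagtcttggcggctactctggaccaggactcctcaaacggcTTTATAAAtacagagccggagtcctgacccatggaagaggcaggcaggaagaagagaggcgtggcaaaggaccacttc
Psma6: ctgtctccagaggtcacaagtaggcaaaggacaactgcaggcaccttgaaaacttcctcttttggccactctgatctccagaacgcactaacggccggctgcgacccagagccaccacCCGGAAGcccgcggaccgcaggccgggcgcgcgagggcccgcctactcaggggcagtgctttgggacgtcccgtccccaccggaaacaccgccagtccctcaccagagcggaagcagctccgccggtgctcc
Psmf1: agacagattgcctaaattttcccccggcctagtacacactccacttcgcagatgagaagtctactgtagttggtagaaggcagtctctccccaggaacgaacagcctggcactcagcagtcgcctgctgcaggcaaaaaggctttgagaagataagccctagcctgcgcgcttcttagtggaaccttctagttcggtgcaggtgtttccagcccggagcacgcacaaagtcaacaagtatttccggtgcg
Psmb11: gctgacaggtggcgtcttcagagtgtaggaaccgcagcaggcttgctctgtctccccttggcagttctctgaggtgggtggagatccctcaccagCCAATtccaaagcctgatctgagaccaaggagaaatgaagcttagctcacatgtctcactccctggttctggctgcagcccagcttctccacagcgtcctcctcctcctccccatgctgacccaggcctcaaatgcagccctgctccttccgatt

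Most proteasome genes carried both marks at a gene end. CHD7 regions lay at an end of 35 of the 48 proteasome genes (72.9%) and of 37 of the 51 genes of the rule, against 44.2% of all protein-coding genes. H3K27ac regions lay at an end of 39 (81.2%) and 41, against 47.6%. Both marks were found at 32 (66.7%) and 34, against 39.3%. CHD7 alone was found at 3 (6.25%), against 4.83%, and H3K27ac alone at 7 (14.6%), against 8.29%. Neither was found at 6 (12.5%), or 7 with Psme2b, against 47.5%. Psmc3ip and Psme3ip1 had both marks. Among genes with H3K27ac at an end, CHD7 was found at 32 of 39 proteasome genes (82.1%) and at 82.6% of all genes. The CHD7 share among acetylated proteasome genes was therefore near that of all acetylated genes. H3K27ac was found at 32 of the 35 proteasome genes with CHD7 (91.4%) and at 89.1% of all genes with CHD7. The regions themselves followed the same pattern, with 33 of 41 CHD7 end regions overlapping H3K27ac (80.5%) against 80.4% over all genes. Regions at both ends of a gene were rare, at 1 proteasome gene for CHD7 (2.08%, against 4.43%) and at 1 for H3K27ac (2.08%, against 2.98%). Stricter peak limits lowered the CHD7 share both among proteasome genes and among all genes. With only the 10000 peaks of lowest q of each library, CHD7 was at 13 proteasome genes (27.1%), against 20.2% of all genes. H3K27ac was then at 31 (64.6%), against 31.4%. Requiring a −log10 q of 10 or more left CHD7 at 8 (16.7%), against 10.6%, and H3K27ac at 31 (64.6%), against 28.3%.

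The 2 libraries of each antibody gave nearly the same share. A peak lay at an end of 39 and 38 proteasome genes in the CHD7 libraries (81.2% and 79.2%) and of 41 and 39 in the H3K27ac libraries (85.4% and 81.2%). The shares of all genes were 51.1% and 49.1% for CHD7 and 51.3% and 49.8% for H3K27ac. Neither input library had a peak at an end of any of the 51 genes, and their shares of all genes were 0.0689% and 0.133%. Over the 51 genes the share was 79.4% ± 1.39 (SD, n = 2) for CHD7 and 82.4% ± 2.77 (SD, n = 2) for H3K27ac. The difference was -2.94 percentage points, and the antibodies met in a tie of 80.4% between CHD7 library 1 and H3K27ac library 2. An exact permutation test, two-sided, gave p = 0.667, where 2 against 2 libraries cannot give a p below 0.333.

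**Figure D1:**
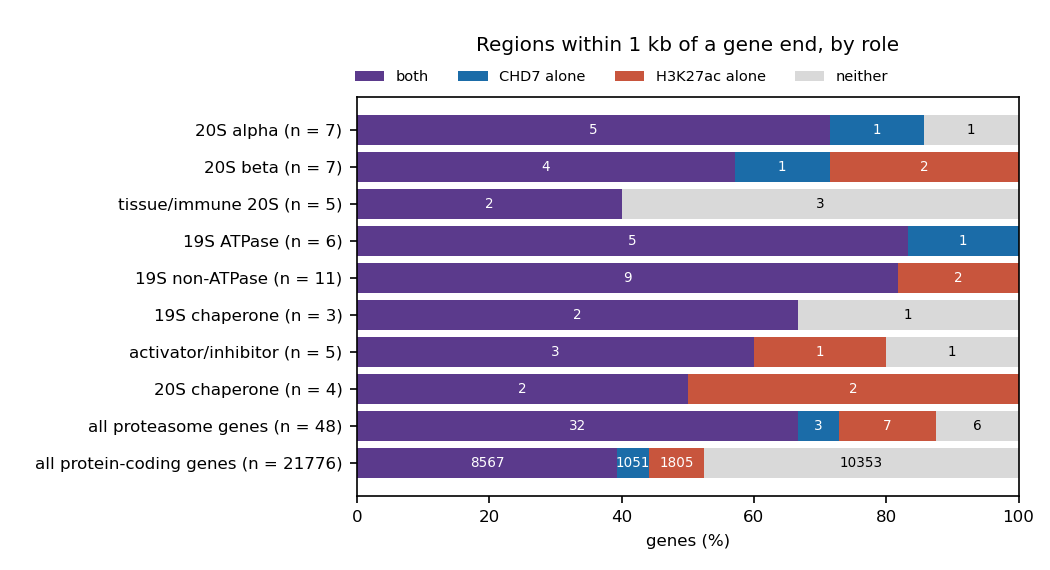
Share of genes (%, horizontal axis) with CHD7 and H3K27ac, CHD7 alone, H3K27ac alone or neither within 1 kb of a gene end, for the 8 roles of proteasome genes, all 48 proteasome genes and all 21776 protein-coding genes; the number of genes stands in each segment. All 6 ATPase and all 11 non-ATPase genes of the 19S particle have at least 1 mark, whereas 3 of the 5 tissue and immune 20S genes have neither.

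The strength of a region was read from the fold enrichment at the summit, a ratio given by the authors' peak caller for each library, and per gene the strongest end region was used. For CHD7 the median of the mean fold was 3.87 over 35 proteasome genes, with a range from 2.09 to 5.77, beside 3.73 over all 9618 genes with a region. For H3K27ac it was 5.27 over 39 proteasome genes, from 2.82 to 7.31, beside 4.80 over 10372 genes. The proteasome genes thus stood near the middle of all genes for CHD7 and somewhat above it for H3K27ac. Their median percentile among genes with a region was 57.0 for CHD7, with 18 of 35 above the middle. It was 64.4 for H3K27ac, with 29 of 39 above the middle. Over 32 proteasome genes with both, the mean folds of CHD7 and H3K27ac had a rank correlation of 0.18, where all 8567 genes with both gave 0.44. Some genes were high for both, such as Psmd3, at percentile 91.3 for CHD7 and 93.9 for H3K27ac. Between the libraries of an antibody the fold had a rank correlation of 0.53 for CHD7 (35 genes) and 0.57 for H3K27ac (39 genes), so the order within the family is only partly reproducible, and all genes gave 0.59 and 0.76. These correlations run across genes that share libraries and are descriptions.

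**Figure D2:**
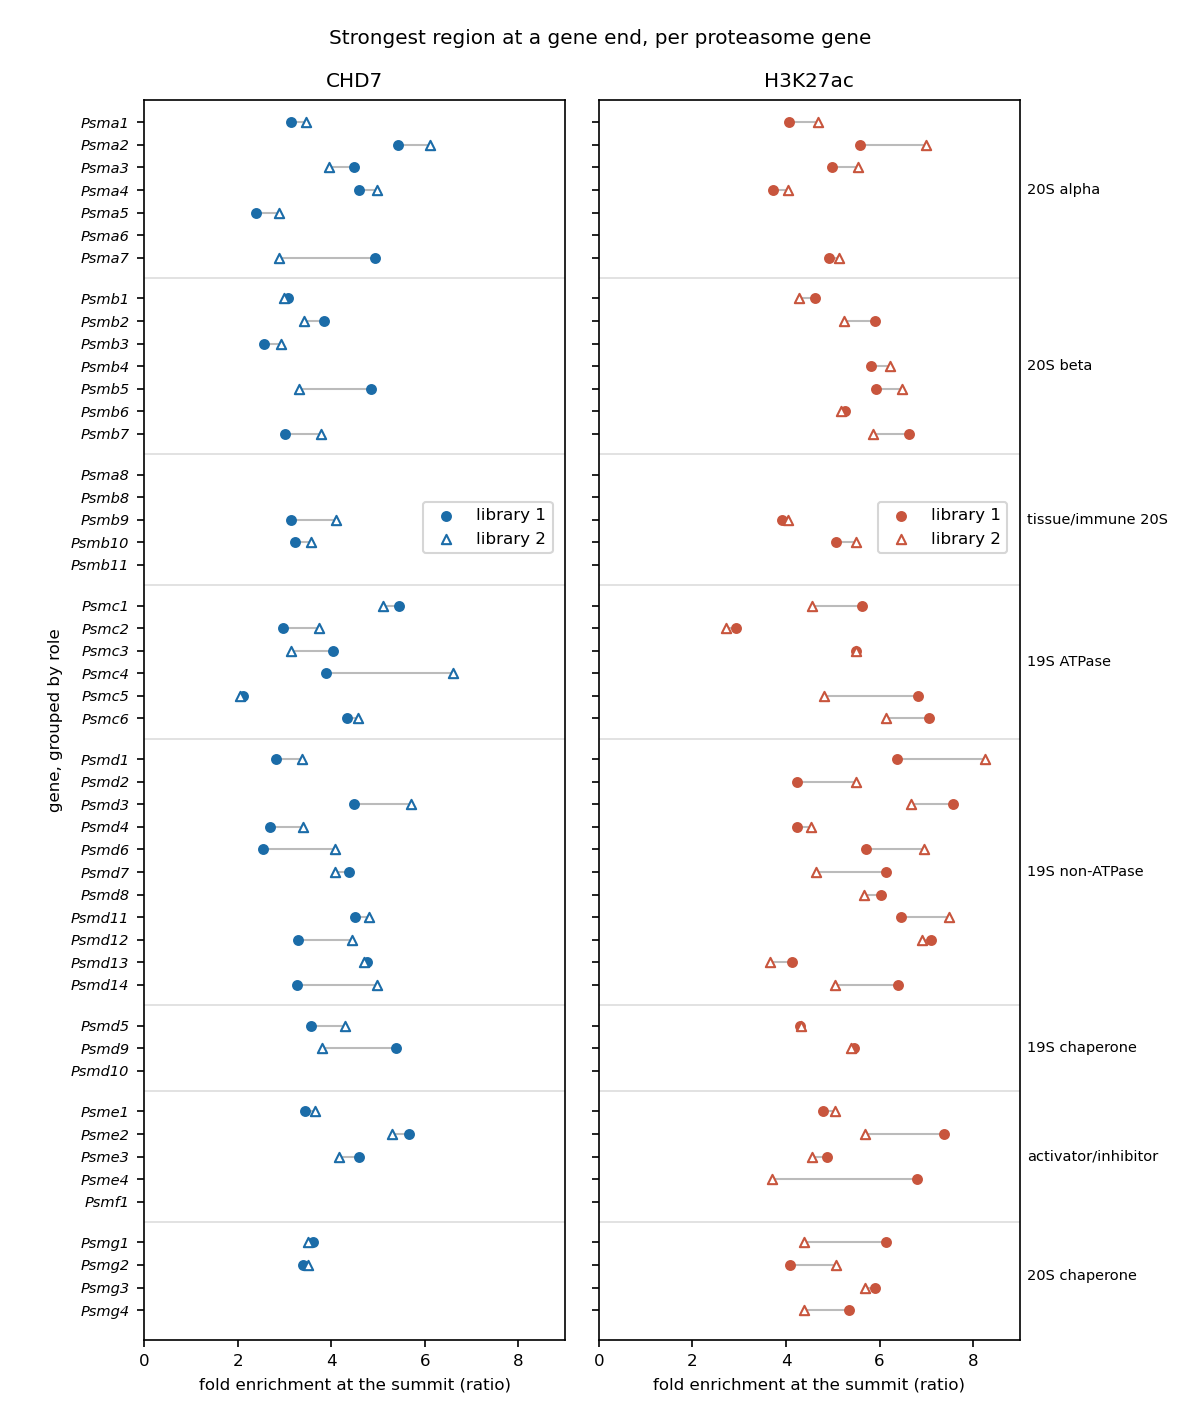
Fold enrichment at the summit of the strongest region at a gene end (horizontal axis, ratio given by the authors' peak caller) for CHD7 and H3K27ac at each of the 48 proteasome genes, ordered by role; circles are library 1, triangles library 2 and grey lines join the libraries. Empty rows are genes without a region found in both libraries; mean CHD7 folds run from 2.09 at Psmc5 to 5.77 at Psma2 and mean H3K27ac folds from 2.82 at Psmc2 to 7.31 at Psmd1.

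The alpha ring of the 20S core gates the entry of substrates. Of its 7 genes, 5 had both marks, Psma5 had CHD7 alone and Psma6 had neither at an annotated end. Psma2 had the highest CHD7 fold of all proteasome genes, 5.43 and 6.12 in libraries 1 and 2 (5.77 ± 0.485, SD, n = 2), with H3K27ac at 5.59 and 6.98. Its CHD7 region lay 223 bp outside the gene, on the side of Mrpl32, a mitochondrial ribosomal protein gene whose start is 205 bp from that of Psma2 on the other strand. A second CHD7 region of 3.64 and 3.36 lay inside Psma2, 64 bp from its start, and overlapped H3K27ac, which the outer one did not. Psma5 had the lowest CHD7 fold of the ring, 2.39 and 2.88, and H3K27ac was called there only in library 1, at 2.77. Psma4 had one of the lowest H3K27ac folds, 3.72 and 4.04, beside a CHD7 fold of 4.60 and 4.98. At Psma7 the libraries differed most within the ring, with CHD7 at 4.93 and 2.89.

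The catalytic activities of the core sit in its beta ring, in Psmb5, Psmb6 and Psmb7. Of the 7 genes of the constitutive ring, 4 had both marks, Psmb3 had CHD7 alone, and Psmb4 and Psmb6 had H3K27ac alone. Psmb5 had the highest CHD7 fold of the ring, 4.85 and 3.32, with H3K27ac at 5.91 and 6.47. Psmb3 had the lowest, 2.57 and 2.93, and its nearest H3K27ac peaks lay 2579 and 2618 bp from the gene. The gap at Psmb6 was wide, since its nearest CHD7 peaks were 4747 and 4925 bp away, while its H3K27ac folds were 5.26 and 5.17. At Psmb4 the absence of a CHD7 region rested on 1 library: library 2 had a CHD7 peak of 2.58 there, 48 bp from the gene end, and library 1 had none nearer than 1394 bp. Its H3K27ac folds were 5.82 and 6.21, and its acetylated region, chr3:94886451-94887446, covered the start and the whole window printed above.

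Some 20S subunits replace a constitutive one in particular tissues. Psmb8, Psmb9 and Psmb10 form the immunoproteasome of immune cells, Psmb11 belongs to the thymoproteasome of the thymic cortex, and Psma8 is a testis subunit. Psmb9 and Psmb10 had both marks, and Psma8, Psmb8 and Psmb11 had neither. Psmb9 had CHD7 at 3.14 and 4.11 and H3K27ac at 3.91 and 4.04. Its region was shared with Tap1, a peptide transporter gene of antigen presentation whose start is 226 bp away on the other strand, so the peak cannot be assigned to either gene. Psmb10 had CHD7 at 3.22 and 3.56 and H3K27ac at 5.06 and 5.49. A further H3K27ac region of 2.78 and 3.56 lay inside Psmb10, 747 bp from its other end. Psmb8 had a CHD7 peak in library 1 only, at 3.22. For Psmb11 the nearest peaks were those of its neighbour Psmb5, 6493 and 6698 bp away for CHD7 and 6411 and 6635 bp away for H3K27ac. Psma8 had peaks inside the gene in single libraries, a CHD7 peak of 3.23 in library 2, 4798 bp from the nearer gene end, and an H3K27ac peak of 3.42 in library 1, 10491 bp from it. The nearest peaks of the other libraries lay outside the gene, 20879 bp away for CHD7 and 20152 bp for H3K27ac.

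The 6 ATPases of the 19S particle form the ring that unfolds substrates, and all 6 genes had CHD7 at an end. Both marks were found at 5 of them, with Psmc4 carrying CHD7 alone. Psmc1 had the highest CHD7 fold of the group, 5.45 and 5.11 (5.28 ± 0.240, SD, n = 2), in chr12:100109631-100110108, upstream of the start. A second CHD7 region at Psmc1, of 2.57 and 4.25, covered the start and overlapped H3K27ac of 5.61 and 4.56. Psmc5 had the lowest CHD7 fold of all proteasome genes, 2.12 and 2.06 (2.09 ± 0.0410, SD, n = 2), at percentile 0.135 of all genes with a region. A stronger CHD7 peak, of 2.89, lay at an end in library 2 only, outside that region. H3K27ac at Psmc5 was high, 6.81 and 4.80. Psmc4 was its reverse, with CHD7 at 3.90 and 6.60 and an H3K27ac peak in library 1 only, at 3.26. Psmc2 had the lowest H3K27ac fold of the family, 2.92 and 2.72, with CHD7 at 2.98 and 3.75 at its start and a further CHD7 region of 2.95 and 3.50 at its other end. Psmc3 and Psmc6 had CHD7 at mean folds of 3.58 and 4.46 and H3K27ac at 5.49 and 6.60.

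The non-ATPase subunits of the 19S particle bind ubiquitin, remove it and hold the particle together. All 11 genes had H3K27ac and 9 had CHD7 as well. The 3 highest H3K27ac folds of the family fell here. They were 6.37 and 8.25 at Psmd1, 7.57 and 6.66 at Psmd3 and 7.10 and 6.92 at Psmd12. Psmd1 and Psmd2 encode the large scaffold subunits, and Psmd14 encodes the metalloprotease that removes ubiquitin chains. Psmd3 also had the highest CHD7 fold of the group, 4.49 and 5.71, and Psmd4, a ubiquitin receptor, the lowest, 2.69 and 3.40. Psmd13 had one of the lowest H3K27ac folds, 4.12 and 3.66, beside a CHD7 fold of 4.77 and 4.71. Stronger H3K27ac peaks, of 4.26 in library 1 and 4.59 in library 2, lay at an end of Psmd13 outside that region. Psmd2 and Psmd8 lacked a CHD7 region, in different ways. Psmd2 had a CHD7 peak in each library, 2.70 and 3.24, on opposite sides of the start, so that they did not overlap. The nearest CHD7 peaks of Psmd8 lay 2342 and 2475 bp away.

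Psmd5, Psmd9 and Psmd10 are chaperones that assemble the base of the 19S particle. Psmd9 and Psmd5 had both marks, with CHD7 at 5.39 and 3.81 in Psmd9 and at 3.57 and 4.30 in Psmd5. Psmd10, also known as gankyrin and the only proteasome gene of the rule on the X chromosome, had neither. Its nearest CHD7 peaks were 319624 and 319627 bp away and its nearest H3K27ac peaks 40336 and 405221 bp away. On the X chromosome, 11.9% of 963 genes had CHD7 and 24.4% had H3K27ac at an end, lower shares than over the genome. Psmd10 and the autophagy gene Atg4a start 196 bp apart on opposite strands, and no region of either mark lay between them.

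Psme1 and Psme2 encode the PA28 activator, Psme3 its nuclear relative and Psme4 the activator PA200, whereas Psmf1 encodes an inhibitor, PI31. The 3 PA28 genes had both marks. Psme2 had the highest CHD7 fold of this role, 5.66 and 5.30 (5.48 ± 0.255, SD, n = 2), in chr14:55591156-55591585, which runs into the upstream window printed above, and H3K27ac at 7.37 and 5.69. Psme1 had the lowest, 3.45 and 3.65. Psme4 had H3K27ac that differed between the libraries, 6.81 and 3.70. CHD7 peaks near Psme4 were 2.81 in library 2, 128 bp upstream of the gene, and 3.24 in library 1, inside the gene and 1128 bp from its start, just beyond the 1 kb limit.

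Psmg1 to Psmg4 assemble the alpha ring of the 20S core. All 4 genes had H3K27ac, from a mean fold of 4.57 at Psmg2 to 5.80 at Psmg3. Psmg1 and Psmg2 had CHD7 as well, at 3.62 and 3.50 in Psmg1 and at 3.39 and 3.51 in Psmg2. At Psmg3 and Psmg4 a CHD7 peak was called within 1 kb in library 1 only, at 4.21 in Psmg3 and at 2.89 for the nearest peak of Psmg4. A stronger CHD7 peak of that library, of 3.73, also lay within 1 kb of an end of Psmg4.

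Of the 13 proteasome genes without a CHD7 region at an end, Psmb4, Psmb8, Psme4, Psmg3 and Psmg4 had a CHD7 peak there in 1 library, and Psmd2 had peaks in both that did not overlap. Of the 9 without an H3K27ac region, Psma5 and Psmc4 had a peak in library 1. The class of these 8 genes depends on the rule that both libraries must agree.

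Annotated gene ends are the outermost ends of a gene, and some starts lie inside. The RefSeq promoter table lists starts for 40 of the 48 proteasome genes. At those starts alone, CHD7 lay within 1 kb at 30 of the 40 genes (75%), against 45.4% of all genes in the table, and H3K27ac at 34 (85%), against 49.7%. Counting these starts as well as gene ends, a definition chosen after the data had been seen, CHD7 was found at 37 of 48 proteasome genes (77.1%) against 47.3% of all genes, and H3K27ac at 41 (85.4%) against 50.8%. Neither was left at 4, Psma8, Psmb8, Psmb11 and Psmd10 (8.33%), against 44.3%. The 2 genes gained were Psma6 and Psmf1.

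The table gives Psma6 2 starts, one at its annotated end, where neither mark was found, and one at position 55398825 of chromosome 12, 14603 bp further in. H3K27ac at chr12:55397925-55399549 covered the inner start at 5.54 and 5.39. A CHD7 region lay on each side of it, at 2.96 and 3.74 upstream, ending 19 bp before the start, and at 3.98 and 3.68 downstream, beginning 51 bp after it. Psmf1 starts 2889 bp inside its annotated end, and regions of CHD7 of 4.28 and 4.11 and H3K27ac of 4.11 and 4.69 both covered that start. The CHD7 peak of library 2 itself lay 73 bp from the start of Psmf1. Psma3 had both marks at the outer end, 4.49 and 3.95 for CHD7 and 4.98 and 5.54 for H3K27ac. At the start in the table, 5340 bp further in, its CHD7 was alike, 4.15 and 4.30, and its H3K27ac was 7.25 and 8.23. The mean of 7.74 at this inner start was above the 7.31 of Psmd1, the highest at a gene end. Psmc2 had H3K27ac of 3.72 and 3.90 over its inner start, 1472 bp from the end that carries both marks, with no CHD7 overlapping it.

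**Figure D3:**
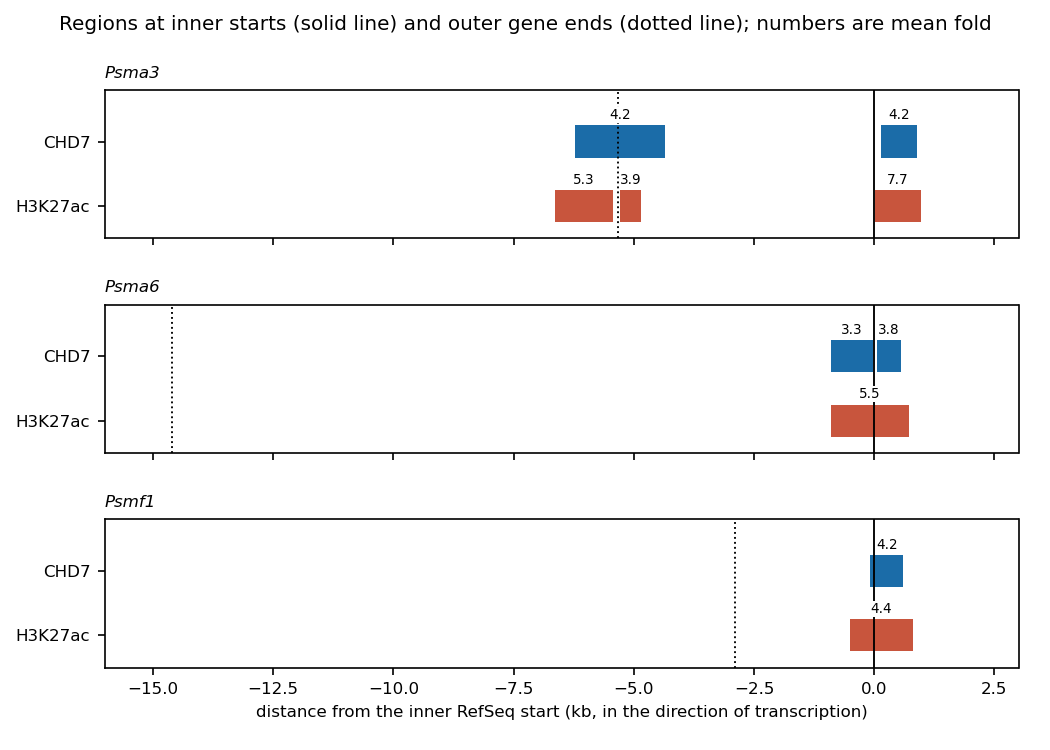
CHD7 and H3K27ac regions of Psma3, Psma6 and Psmf1 by distance from the inner RefSeq start (horizontal axis, kb in the direction of transcription; solid line), with the outer gene end as a dotted line and the mean fold of 2 libraries above each bar. At Psma6 and Psmf1 both marks lie at the inner start and none at the outer end, and at Psma3 they lie at both.

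The CHD7 summits of proteasome genes, taken from the strongest end region of each, lay upstream of the start in a larger share than over all genes. Psma2, Psma7, Psmc1 and Psmd5, counted as upstream, also had a weaker CHD7 region with its summit downstream. For 27 proteasome genes with a start in the table within 1 kb of the CHD7 region, the summit, taken as the mean of both libraries, was upstream at 16 (59.3%), where it was upstream at 37.3% of 6919 genes. The median position was -242 bp, against 204 bp downstream over all genes. The CHD7 libraries gave the same side at all 27 genes, with 16 upstream in both, against 33.7% of all genes. Both summits came from the same region, so the sides could differ only at the 6 genes whose region covers the start. At Psma7 library 2 had its stronger CHD7 peak, of 3.27, in another region, downstream of the start. By the mean of both libraries, H3K27ac summits were also upstream in a larger share, at 14 of 31 proteasome genes (45.2%), against 31.5% of 7726 genes. In both libraries they were upstream at 11 of 31 (35.5%), against 28.2%. At 4 others, Psma7, Psmb4, Psmb5 and Psmg4, the H3K27ac libraries had their summits on opposite sides of the start. Both libraries had the summit within 100 bp of the start at 0 of 27 proteasome genes for CHD7, against 2.11% of all genes, and at 1 of 31 for H3K27ac, Psmd1 (3.23%, against 2.59%). The CHD7 region covered the start at 6 of 27 genes (22.2%), against 41.8% of all genes. The H3K27ac region covered it at 13 of 31 (41.9%), against 53.7%. Among peaks whose −log10 q was 10 or more, CHD7 summits were upstream at 5 of 6 proteasome genes (83.3%) and at 39.6% of all genes. H3K27ac summits were then upstream at 9 of 23 (39.1%) and at 31.9%. Upstream CHD7 summits reached from -614.5 bp at Psma1 to -122 bp at Psme3, and downstream CHD7 summits from 197 bp at Psme1 to 889.5 bp at Psmb10. The summits of the CHD7 libraries were a median of 72 bp apart. They differed by more at Psmc2 (551 bp) and Psma1 (355 bp).

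**Figure D4:**
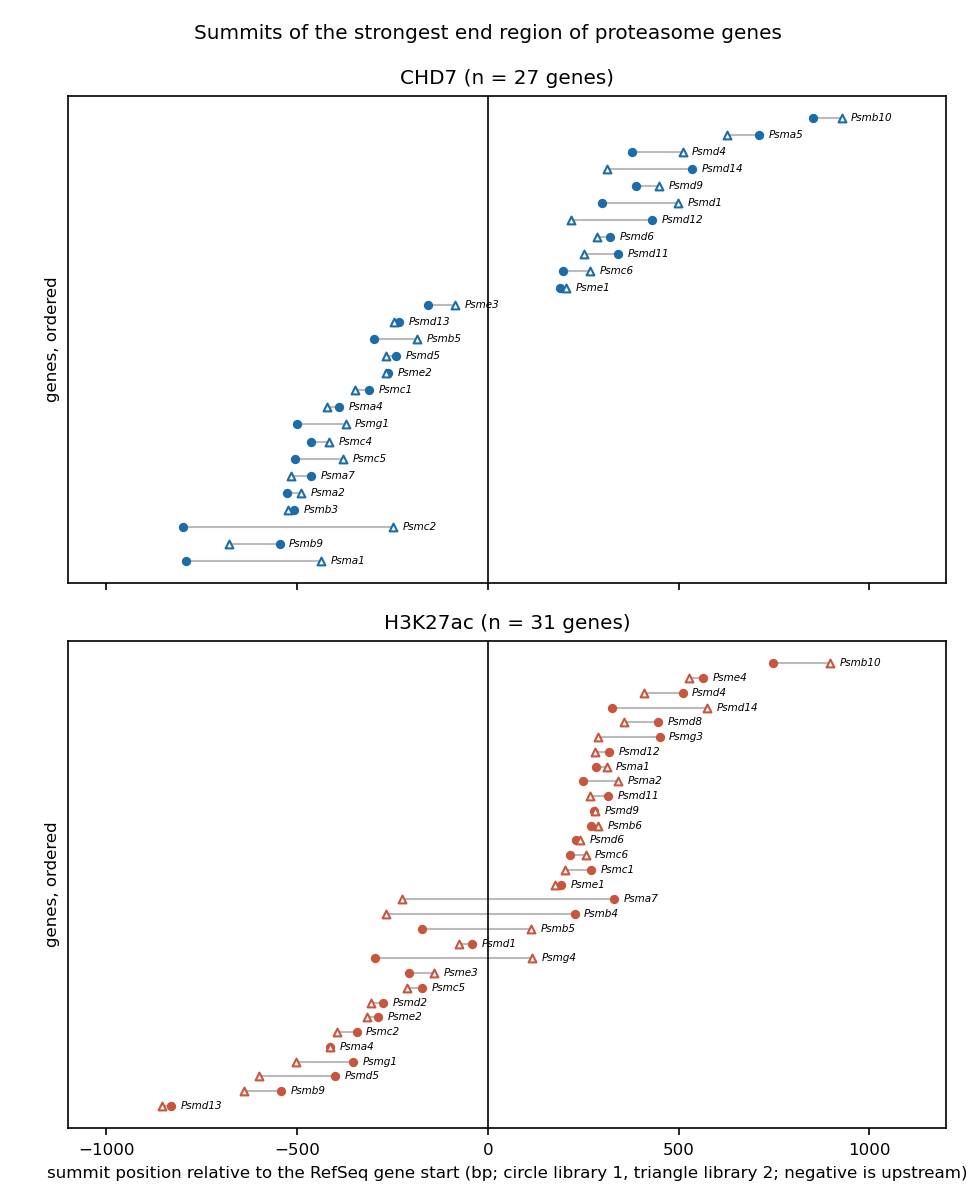
Position of the summit of the strongest end region relative to the RefSeq start (horizontal axis, bp, negative values upstream) for 27 proteasome genes with CHD7 and 31 with H3K27ac, ordered by the mean of the libraries; circles are library 1, triangles library 2 and grey lines join them. In both libraries 16 of 27 CHD7 summits and 11 of 31 H3K27ac summits lie upstream, and at 4 genes the H3K27ac summits of the libraries lie on opposite sides.

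Regions that lay within 1 kb of an end of another protein-coding gene as well were about as common as over all genes. The strongest end region was of this kind at 11 of 35 proteasome genes for CHD7 (31.4%), near the 29.7% of all genes, and at 12 of 39 for H3K27ac (30.8%), near 28.7%. By the side of the CHD7 summit, of the 16 genes with an upstream summit, 10 had a region that was also at another gene's end (62.5%), against 36.4% of all genes with an upstream summit. Of the 11 with a downstream summit, 0 had one, against 22% of all. For H3K27ac, by the mean summit, 7 of 14 with an upstream summit had one (50%), against 41.4%, and 4 of 17 with a downstream summit (23.5%), against 19.8%. The 10 genes with CHD7 upstream, and their neighbours, were Psma2 with Mrpl32, Psma4 with AY074887 and Hykk, Psma7 with Ss18l1, Psmb3 with Pcgf2, Psmb9 with Tap1, Psmc2 with Dnajc2, Psmc5 with Ftsj3, Psmd13 with Sirt3, Psme2 with Rnf31 and Psmg1 with Brwd1. Rnf31 encodes a subunit of the complex that builds linear ubiquitin chains. The starts of Psma7 and Ss18l1 are 19 bp apart, those of Psmc5 and Ftsj3 101 bp, and those of Psmd13 and the mitochondrial deacetylase Sirt3 85 bp at the nearer of 2 starts. At these genes CHD7 at the neighbour and at the proteasome gene cannot be told apart.

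Regions away from gene ends were few. Within 100 kb, 8 distal CHD7 regions had a proteasome gene as their nearest gene, at 6 genes, which is 0.167 per proteasome gene and 0.353 per gene over all genes. For H3K27ac there were 9, also at 6 genes, or 0.188 per proteasome gene and 0.262 over all. Regions at inner starts made up 4 of the 8 and 4 of the 9. The highest CHD7 fold was 4.73 and 4.06 in chr13:34154567-34155053, between genes and 7911 bp from Psmg4, with no H3K27ac. After the inner starts of Psma3 and Psmf1 came chr8:107602976-107603573, 14494 bp from Psmd7, at 3.85 and 4.09 and again without H3K27ac. Psmd7 had 2 H3K27ac regions of its own, 2872 bp away at 4.05 and 5.54 and 3515 bp away at 3.67 and 4.08, neither with CHD7. The only region between genes where the marks overlapped lay near Psmg4, its CHD7 region 12909 bp away, with CHD7 at 3.38 and 3.23 and H3K27ac at 3.88 and 3.68.

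Other genes of the proteasome and ubiquitin system were marked in shares at least as large. Of 39 genes in 4 lists, 34 had CHD7 (87.2%) and 35 had H3K27ac (89.7%) at an end, beside the 44.2% and 47.6% of all genes. The list on transcription and activation of proteasome genes had CHD7 at 8 of 10 genes and H3K27ac at 9. Nfe2l1 had CHD7 at 3.46 and 3.56 and H3K27ac at 5.59 and 4.27. Ngly1, the deglycosylase that activates Nfe2l1, had the highest CHD7 fold of the list, 6.13 and 5.70. Ddi2, the protease that cleaves Nfe2l1, had H3K27ac alone, at 4.76 and 5.97. Nfyc, a subunit of NF-Y, had neither at an end and both at an inner start. The list of subunits and associated factors with other symbols had both marks at 11 of 13 genes, the highest CHD7 fold being that of the deubiquitinase Usp14, 5.51 and 4.09. Ecpas and Fbxo7 had neither at an end and both at an inner start. All 8 ubiquitin shuttle and segregase genes had both marks, led by the shuttle factor Ubqln4 with CHD7 at 7.14 and 7.05 and H3K27ac at 9.10 and 9.46, above every proteasome gene. Of 8 ubiquitin genes and activating enzymes, 7 had both. Nae1, a subunit of the NEDD8-activating enzyme, had the highest CHD7 fold there, 4.61 and 4.99. Uba1, the main ubiquitin-activating enzyme, had neither at an end and H3K27ac at an inner start.

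Motifs were searched on both strands of the 300-base RefSeq promoters, 250 bases before and 50 after the start, in 43 promoters of 40 proteasome genes and in 21263 promoters of protein-coding genes. The ETS family motif CCGGAAG stood in 15 of the 43 proteasome promoters (34.9%) and in 11.6% of all promoters. Among promoters of genes with both marks it stood in 11 of 27 (40.7%) and in 19.3%. The genes were Psma6, Psmc1, Psmc2, Psmc6, Psmd2, Psmd4, Psmd6, Psmd11, Psmd12, Psmd13, Psme3, Psme4, Psmg1 and Psmg3. In the sequences printed above, the match of Psmc1 lies 28 bases before the start and is read on the other strand as CTTCCGG. That of Psma6 lies 132 bases before its inner start. GCGCATG is part of the site of the factor encoded by the gene Nrf1, which is a different gene from Nfe2l1. It stood in 5 promoters (11.6%) against 4.8% of all, and in 4 of 27 against 7.59% where both marks were present. Psma2, the gene with the highest CHD7 fold, had 5 matches to it, from 190 to 6 bases before the start.

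As a ratio of shares, though not always in percentage points, the other motifs stood nearer to the level of all promoters. The antioxidant response element core TGACNNNGC was found in 6 of 43 (14%) against 13%, at Psmb5, Psmb6, Psmc6, Psmd9, Psmd12 and Psme4. The NF-Y motif CCAAT was found in 14 (32.6%) against 38.2%, and the SP family motif GGGCGG in 24 (55.8%) against 46.2%. The Yy1 motif ATGGCGG was found in 4 (9.3%) against 5.25%, and the TATA box TATAAA in 4 (9.3%) against 12.6%. Psmb4, with H3K27ac alone, is one of the latter, with matches on both strands 78 and 76 bases before the start, visible in its printed sequence as an overlapping run. Proteasome promoters had a median GC content of 57.3% and a median observed over expected CpG ratio of 0.734, beside 56.3% and 0.567 for all promoters. Where both marks were present the CpG ratios were alike, 0.793 and 0.792. A match describes letters in a window and does not show binding.

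**Figure D5:**
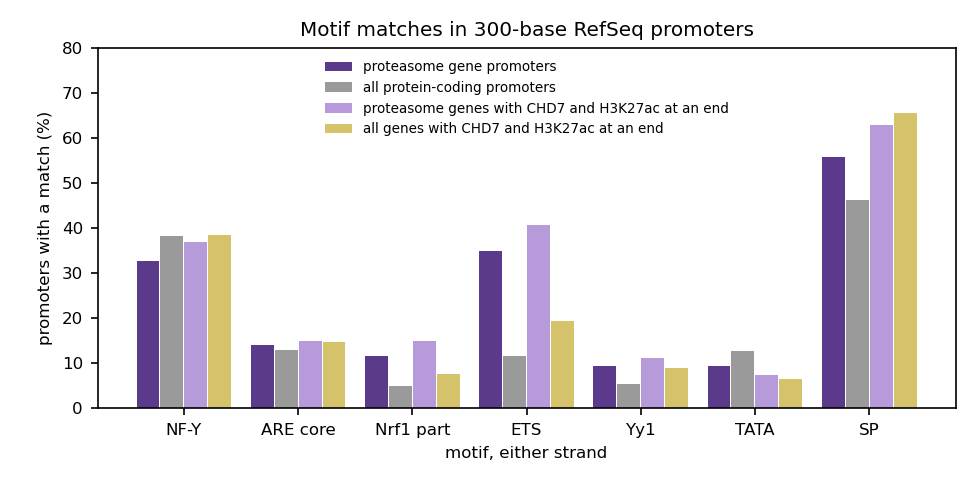
Share of 300-base promoters (%, vertical axis) with at least 1 match on either strand to each of 7 motifs, for 43 proteasome promoters, all 21263 protein-coding promoters, 27 promoters of proteasome genes with both marks and 8618 promoters of all genes with both marks. The ETS motif is at 34.9% against 11.6%, and at 40.7% against 19.3% where both marks are present.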

How the data were processed

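ChIP-seq of sorted cells was analysed from 6 peak lists, 2 libraries each for CHD7, H3K27ac and input, grouped by the antibody in the labels. Per the submitters' processing notes, the tools were MACS2 2.1.2, Bowtie2 2.3.3.1, bcl2fastq 2.18.0.12 and Picard, on the build mm10. Which control the peak caller used is, in the sources used here, not given. The deposited lists were called on single libraries by the authors and give each peak's fold enrichment at the summit, a ratio. The authors' deposited p-values and q-values are on the −log10 scale, beside an integer score and the summit's offset. The lists hold no read counts, so no interval was computed, and a deeper library yields more peaks.

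Rows of 1 interval were joined at the highest fold, and unplaced sequence was left out. Overlap meant at least 1 bp. Gene ends came from a RefSeq gene table of GRCm38.p6 with no strand (124 genes with coordinates of unplaced sequence were left out), and starts, strands and sequences from the RefSeq promoter table of that build, which held 40 of the 48 proteasome genes. A distal region was over 1 kb from every protein-coding gene end and was given to the nearest gene within 100 kb.

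The members and gene lists were chosen with earlier results of these data known, so counts stand beside the share of all genes and no list was tested. The share of members per library was compared by an exact permutation test. Values per library were given for the highest and lowest CHD7 fold of each role, the 3 highest and 3 lowest H3K27ac folds, each gene lacking a region, second ends, the leading distal regions and, in related lists, the highest CHD7 fold and genes lacking a mark. A few other members were named after their values were seen. Alternatives were stricter q, other windows, either library, leaving out each replicate, a replicate block, 50% overlap, a 50 kb limit, shorter promoters and gene ends with starts. Code was tested on simulated data and run in Python 3.11.15 with numpy 2.4.6, scipy 1.17.1 and matplotlib 3.10.9.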

Additional observations from a re-analysis of the deposited data

How the results depend on the processing

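Over the 51 genes of the rule, 108 of 142 recomputed values were labelled the same as the reported ones. For counts and summit shares this meant within a fixed ratio, and for median folds within the SD of the libraries' medians. For the difference between the antibodies it meant only the same sign, whatever the size. A change of direction could be recorded for that difference alone, and 0 were. The H3K27ac count of 41 ran from 32 (−log10 q of at least 10) and 33 (10000 peaks) to 43 under the alternatives, and stricter peak limits moved CHD7 most. The 32 were 62.7%, against 28.3% of all genes, and the 33 were 64.7%, against 31.4%. With a −log10 q of at least 10, CHD7 was at 9 genes (17.6%, against 10.6% of all genes), both marks at 6, H3K27ac alone at 26 and neither at 16. CHD7 end regions overlapping H3K27ac then numbered 4, where 37 of 45 had been counted. How many CHD7 end regions were left at this limit was not recorded, so the 4 give no share. Distal regions were 1 for CHD7 and 3 for H3K27ac, related genes with CHD7 were 13 of 39, and the median folds were 4.79 and 5.53 (from 3.91 and 5.26). With the 10000 peaks of lowest q of each library, CHD7 was at 15 genes (29.4%, against 20.2%), both at 13, H3K27ac alone at 20 and neither at 16, with 11 overlapping regions, 4 and 4 distal regions, 20 related genes and medians of 4.46 and 5.49. In both settings the share with CHD7 stayed above that of all genes. Regions called in either library gave H3K27ac alone at 2, 56 overlapping regions, 21 and 16 distal regions and a CHD7 median of 3.73. Using single libraries (without replicate 1 or without replicate 2), H3K27ac alone was at 4 and 4 genes, distal CHD7 regions were 15 and 15, distal H3K27ac regions were 14 without replicate 2, and the CHD7 median was 3.79 and 3.73. Under these settings no share of all genes was computed for both marks, H3K27ac alone, neither, overlapping regions or distal regions. In the 150 bases nearest to the start, GCGCATG matches fell to 3 of 43 promoters (6.98%, against 3.38% of all) and TATAAA to 1 (2.33%, against 6.73%). The difference between the antibodies in the share of members ran from -40.2 percentage points (strict q) to -0.980 (window of 2.5 kb), and was -1.96 without replicate 1 and -3.92 without replicate 2. It was -28.4 with the 10000 peaks and -4.90 with a window of 500 bp. In both of these, and with strict q, the libraries of the antibodies separated fully (exact permutation test, p = 0.333, the smallest possible). With the replicate block the difference was -2.94 (exact permutation of signs within pairs, p = 0.5, the smallest that 2 pairs allow). The labels do not say that equal numbers share a source. The alternatives for gene starts, median folds and summit side were chosen after seeing the data. Unknown depth limits every count of genes lacking CHD7.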
